A study of Arabidopsis thaliana with 3 samples.

Results

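Beta-tubulin pairs with alpha-tubulin to form the heterodimer from which microtubules are built, and Arabidopsis thaliana carries a family of genes, TUB1 to TUB9, for it. The 9 genes were taken by locus from the annotated array table, as spots whose identifier begins with AT1G75780 (TUB1), AT5G62690 (TUB2), AT5G62700 (TUB3), AT5G44340 (TUB4), AT1G20010 (TUB5), AT5G12250 (TUB6), AT2G29550 (TUB7), AT5G23860 (TUB8) or AT4G20890 (TUB9). All 9 were found, on 20 of 38613 spots with a locus code, and spots were averaged per locus, so that they are 9 of 29030 loci. The symbols in the deposited annotation matched those of RefSeq (assembly TAIR10.1) for all 9. TUB2, TUB3, TUB4, TUB6 and TUB8 carry locus codes of chromosome 5, TUB1 and TUB5 of chromosome 1, TUB7 of chromosome 2 and TUB9 of chromosome 4, and TUB2 and TUB3 are direct neighbours in the RefSeq table. Coordinates are left out, since no source used here states the build behind the array design.

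The arrays set the mutant pfd4 against its wild type Col-0. PFD4 encodes a subunit of prefoldin, and no source used here names the allele. Both genotypes were grown for 2 weeks at 22 °C with 16 h of light per day and 8 h of night, and then held at 4 °C for 24 h, so every sample was cold-treated and the ratios describe genotype in the cold, not a cold response. Each of 3 dual-dye arrays, labelled as biological replicates, held pfd4 and Col-0 RNA together, with pfd4 in Cy3 on arrays 1 and 2 and in Hyper5 on array 3. No source used here says whether RNA of several plants was pooled.

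Newly made tubulin chains do not fold unaided. Prefoldin captures them as they leave the ribosome and passes them to the cytosolic chaperonin CCT, after which the tubulin folding cofactors TFCA to TFCE join alpha- and beta-tubulin into a heterodimer. Cortical microtubules of plant cells guide cellulose deposition and are sensitive to low temperature, and in mammalian cells free tubulin is known to speed the decay of tubulin mRNAs that are being translated. Members of the plant family differ in where they are used: TUB1 is known mainly from roots and dark-grown seedlings, and TUB9 from pollen.

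Values are given as log2 ratios with pfd4 above Col-0. This direction is called likely rather than settled, because the labels tie each genotype to a dye without naming the numerator. It was read from the PFD4 transcript, which lay at -3.08, -2.71 and -2.17 on arrays 1, 2 and 3, below 0 under both dye orientations. If Col-0 was the numerator, every sign below turns.

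The comparison asked how beta-tubulin transcripts stood in pfd4 against Col-0 after 24 h at 4 °C. The mean ratio of every member was below 0, from -0.81 in TUB7 to -0.26 in TUB5, with a median of -0.51, or 1.43-fold less transcript in pfd4. Over all 29030 loci the median was 0.01, and 48.7% of loci had a mean below 0. Of the 9 genes, 7 were below 0 on all 3 arrays (TUB1, TUB2, TUB3, TUB6, TUB7, TUB8 and TUB9), where the share among all loci was 12.1% and among loci of several spots 14.1%. A mean of -0.5 or lower was found in 6 of the 9, TUB8 lying on that limit, against 3.56% of all loci. In whole plants, fewer cells that use a gene and less of its RNA per cell cannot be told apart.

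None of the 9 genes passed limma's test adjusted by Benjamini-Hochberg over all loci, and the adjusted p of the members ran from 0.887 to 0.902. Among all loci 0 passed, or 0.0%, with a smallest adjusted p of 0.314. At an unadjusted p under 0.05 in limma, 7 of the 9 members were lower in pfd4, where 2.58% of all loci were. That count fell to 1 without array 1, where 2.11% of all loci were lower, and to 4 without array 2, where 0.93% were. Without array 1 the genes with a mean of -0.5 or lower numbered 3, against 5.51% of all loci. Beta-tubulin genes are similar in sequence, and whether a spot took up the transcript of a relative was not tested.

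**Figure D1:**
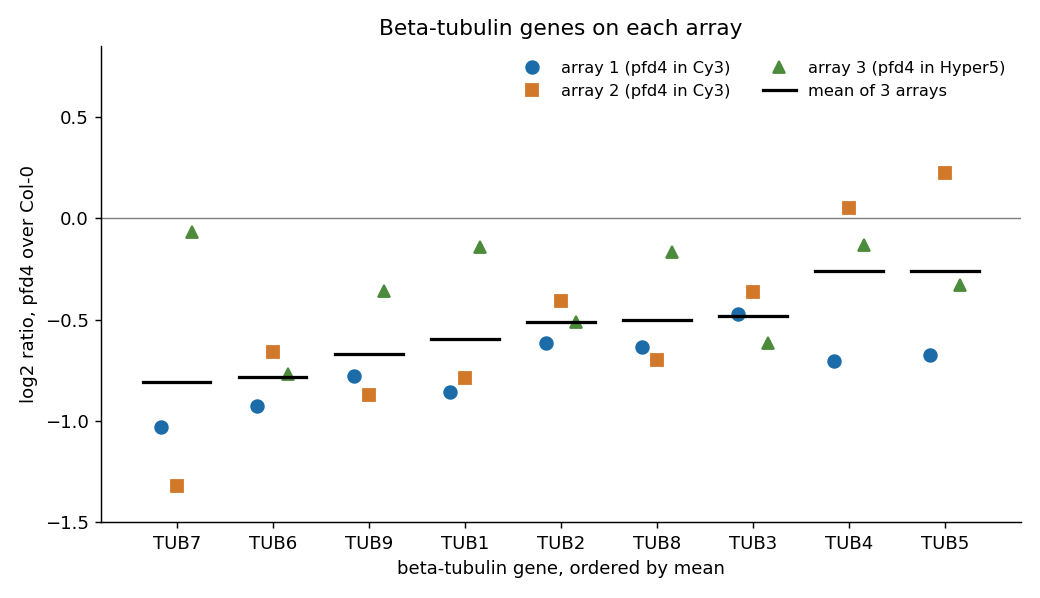
Log2 ratio of pfd4 over Col-0 (vertical axis) for each beta-tubulin gene (horizontal axis, ordered by mean), with 1 point per array and a bar at the mean of 3 arrays. All points lie below 0 except those of TUB4 (0.05) and TUB5 (0.23) on array 2.

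The plot of genes by array shows 3 kinds of profile, a grouping made after the values were seen and without a test. TUB6, TUB9, TUB2 and TUB3 were at -0.36 or lower on every array. In TUB6, TUB2 and TUB3 this holds for averages over spots, not for each spot. TUB6 spot 1 was at -0.21 on array 2 and its spot 2 at -0.34 on array 3. The SD, interval and p of TUB6 rest on averages of these unlike spots. TUB6 had log2 ratios of -0.93, -0.66 and -0.77 on arrays 1, 2 and 3, a mean of -0.79 ± 0.13 (SD, n = 3) and a 95% confidence interval in limma from -1.12 to -0.45. It was the member with the smallest p, at rank 20 of all loci by p (adjusted p = 0.887 in limma). Its mean was 1.72-fold lower in pfd4 and stood in the lowest 1.06% of all loci.

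TUB9 had -0.78, -0.87 and -0.36, with a mean of -0.67 ± 0.27 (SD, n = 3), a 1.59-fold lower level. It was measured by 1 spot, so no second spot checks it. TUB2 had -0.62, -0.41 and -0.51, with a mean of -0.51 ± 0.10. Its neighbour TUB3 had -0.47, -0.36 and -0.62, with a mean of -0.48 ± 0.13. As averages over spots, these neighbouring genes had the smallest spread over arrays of the family. The single spots spread more. Spots 1 and 2 of TUB2 ran in opposite ways, at -0.04 and -1.19 on array 1 and -0.89 and -0.13 on array 3. The difference of the averages, TUB2 minus TUB3, was -0.03 ± 0.13 (SD, n = 3).

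TUB7, TUB1 and TUB8 were low on arrays 1 and 2 and near 0 on array 3, the array with exchanged dyes. TUB7 had -1.03, -1.32 and -0.07, the lowest member on arrays 1 and 2 and the highest on array 3. Its mean of -0.81 ± 0.65 (SD, n = 3) was the lowest of the family and rests on 1 spot. TUB1 had -0.86, -0.79 and -0.14, with a mean of -0.60 ± 0.40. Its profile came from spot 1, with -1.36, -1.14 and 0.03, while spot 2 was nearly level at -0.35, -0.44 and -0.31.

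TUB8 had -0.63, -0.70 and -0.17, with a mean of -0.50 ± 0.29. The limma intervals of these 3 genes reached up to -0.09 in TUB7, -0.10 in TUB1 and -0.08 in TUB8. Those intervals use a spread drawn in part from all loci, not the SDs given here alone. With a dye term in the design, which weights the 2 dye orientations equally, their means were -0.62, -0.48 and -0.42.

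TUB4 and TUB5 were below 0 on arrays 1 and 3 and above it on array 2. TUB4, in which mutations are known to skew root growth, had -0.70, 0.05 and -0.13, with a mean of -0.26 ± 0.39 (SD, n = 3). TUB5 had -0.68, 0.23 and -0.33, with a mean of -0.26 ± 0.45. Both means lay within the spread between arrays, and their limma intervals held 0, reaching 0.23 and 0.28. Without array 1 the means were -0.04 and -0.05, and without array 2 they were -0.42 and -0.50, so their size depended on which array was left out while the sign did not.

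The order of the genes was not resolved. None of the 8 differences between neighbours in that order exceeded its SD over the arrays, and none had the same sign on all 3. The difference between the ends, TUB7 minus TUB5, was -0.55 ± 0.92 (SD, n = 3), with -0.36, -1.55 and 0.26 on the arrays. An exact sign permutation test over 3 arrays cannot give a two-sided p below 0.25, so no such test was run. TUB6 lay below TUB5 by -0.25, -0.89 and -0.44 and below TUB4 by -0.22, -0.71 and -0.64, both pairs being chosen after their values were seen. Of all 36 pairs of members, 8 kept 1 order on all 3 arrays.

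The arrays differed in how low the family stood. On array 1 all 9 genes were below 0, from -1.03 to -0.47, with a mean over genes of -0.74, and 8 of them were in the lowest 5% of all loci on that array. On array 2 the mean over genes was -0.54 with the widest range, from -1.32 to 0.23, and 1 gene was in the lowest 5%. On array 3 all 9 were below 0 again, from -0.77 to -0.07, with a mean over genes of -0.34 and 1 gene in the lowest 5%. The shares of all loci below 0 were 50.7%, 47.6% and 48.5% on the 3 arrays. The family was thus lowest on array 1 and nearest to 0 on array 3.

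Single spots give a second view, because 7 of the genes were measured by 2 to 4 spots each. All 20 spots had a mean ratio below 0, against 48.9% of all spots with a locus code, and 14 were below 0 on all 3 arrays, against 11.7%. In each of the 7 genes with several spots, every spot had a mean below 0, as was the case in 32.2% of all such loci and in 67.1% of those whose locus mean was below 0. The number below 0 was 19 of 20 on array 1, 17 on array 2 and 18 on array 3.

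**Figure D2:**
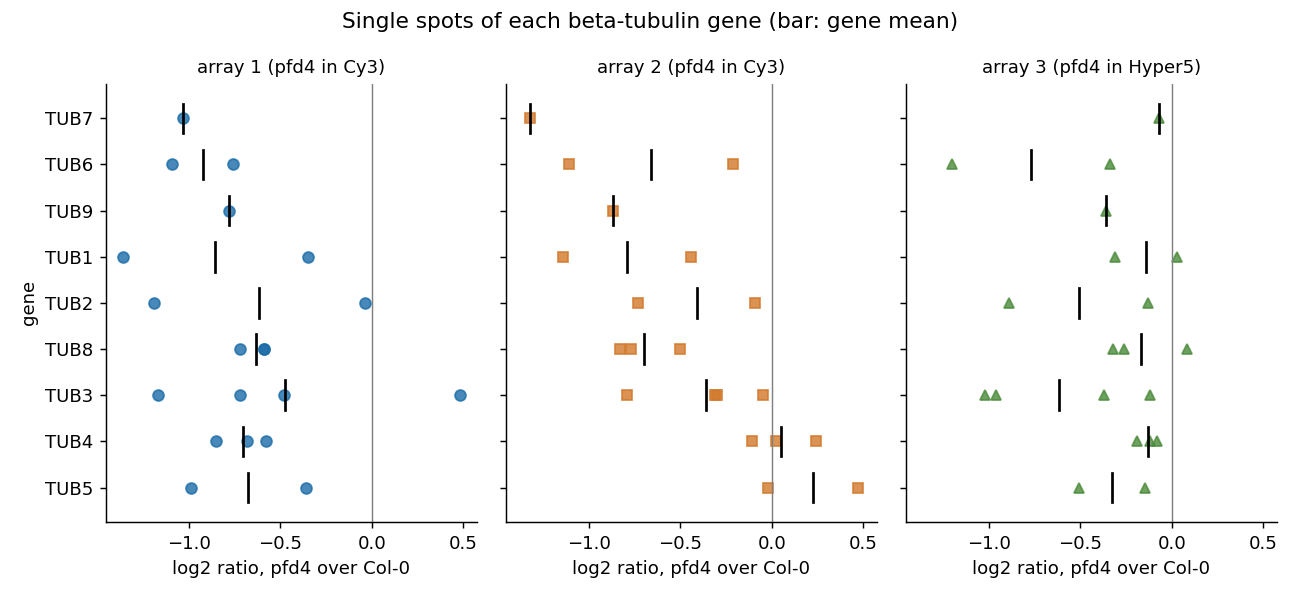
Log2 ratio of pfd4 over Col-0 (horizontal axis) of every spot of each beta-tubulin gene (vertical axis) in 1 panel per array, with a bar at the gene's mean. The spots of TUB3 on array 1 reach from -1.17 to 0.48, while those of TUB4 on array 3 lie between -0.19 and -0.08.

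Within a gene the spots differed on each array by an SD of 0.52, 0.36 and 0.37 on arrays 1, 2 and 3. Over all loci of several spots the SDs were 0.36, 0.38 and 0.34. The spots of TUB6 show how the means came about. Spot 1 had -0.76, -0.21 and -1.20 on the 3 arrays, and spot 2 had -1.09, -1.11 and -0.34. The first was lowest on array 3 and the second on arrays 1 and 2, yet their means were -0.72 and -0.85.

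TUB2 split in the same way, and TUB3 did so in part. TUB2 spot 1 had -0.04, -0.09 and -0.89, and TUB3 spot 4 had -0.48, -0.05 and -1.02. TUB2 spot 2 had -1.19, -0.73 and -0.13, and TUB3 spot 3 had -1.17, -0.79 and -0.12. The other spots of TUB3 had -0.72, -0.30 and -0.37 in spot 1, with no such split, and 0.48, -0.31 and -0.96 in spot 2, the lowest value again on array 3. TUB2 spot 2 and TUB3 spot 3, of different genes, were the closest of all 190 pairs of beta-tubulin spots, at a Euclidean distance of 0.06 over the 3 arrays. Spots of the same gene were hardly closer to each other (median distance 0.81 over 16 pairs) than spots of different genes (0.92 over 174 pairs). Probe sequences were not used here, so which spots share a target stretch is not known.

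**Figure D3:**
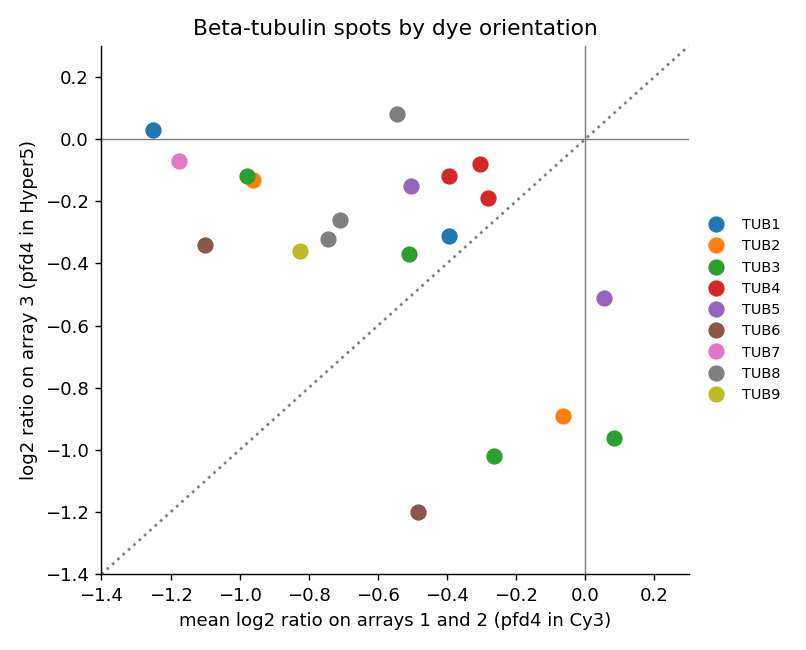
Each beta-tubulin spot by its mean log2 ratio on arrays 1 and 2, with pfd4 in Cy3 (horizontal axis), and its log2 ratio on array 3, with pfd4 in Hyper5 (vertical axis), coloured by gene, with a dotted line where both are equal. The 5 spots under the line, of TUB2, TUB3, TUB5 and TUB6, were lowest on array 3. The other spots were lower in the mean of arrays 1 and 2 than on array 3.

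The plot of spots by dye orientation shows that spots low on arrays 1 and 2 mostly lay nearer to 0 on array 3, and the reverse. Over the 20 spots, Pearson's r was 0.49 between arrays 1 and 2, -0.60 between arrays 1 and 3 and -0.35 between arrays 2 and 3, given as a description because the spots belong to 9 related genes and share the 3 arrays. Over all 38613 spots with a locus code the same values were 0.43, -0.33 and -0.10. Array 3 differs from the others both in its dyes and in its plants, and these cannot be told apart here. With the dye term, the 9 means ran from -0.78 in TUB6 to -0.23 in TUB4, with a median of -0.51.

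The other genes of tubulin assembly were described from lists of loci. Alpha-tubulin, the partner in the heterodimer, did not share one direction: 0 of its 6 genes passed limma's adjusted test in either direction, 1 was below 0 on all 3 arrays and 3 were above it, against 12.1% and 12.3% of all loci. The median of the 6 means was 0.02. TUA1, known mainly from pollen, had -0.29, -0.34 and -0.40. TUA2 had 0.33, 0.78 and 0.41, with a mean of 0.50 ± 0.24 (SD, n = 3). TUA6, in which mutations are known to twist growth, had 0.16, 0.87 and 0.63, with a mean of 0.55 ± 0.36.

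The means of the remaining alpha-tubulin genes lay nearer to 0, though not their ratios on each array. TUA4, another gene known from twisting mutants, had a mean of 0.15 ± 0.12. The neighbouring genes TUA3 and TUA5 had means of -0.10 ± 0.52 and -0.13 ± 0.48. On arrays 1, 2 and 3 TUA3 had -0.485, 0.485 and -0.31, and TUA5 had -0.65, 0.31 and -0.06. Both were below 0 on arrays 1 and 3 and above it on array 2, as were TUB4 and TUB5. On array 1 both lay within the range of the beta-tubulin genes, from -1.03 to -0.47. On array 2 the medians were -0.66 over beta- and 0.40 over alpha-tubulin genes, and on arrays 1 and 3 they were -0.70 against -0.14 and -0.33 against 0.05. The difference between the families was not tested, because both lists were set with results of these arrays known. The gamma-tubulin genes, which nucleate microtubules, had means of -0.09 ± 0.22 in TUBG1 and 0.03 ± 0.20 in TUBG2.

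**Figure D4:**
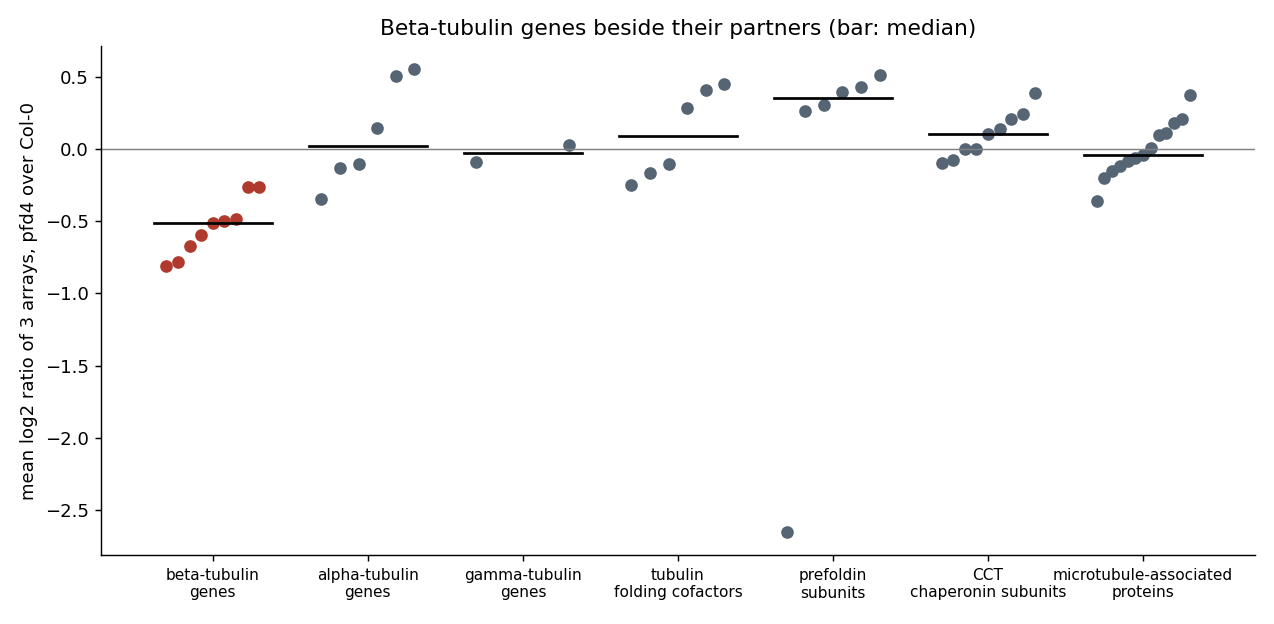
Mean log2 ratio of 3 arrays, pfd4 over Col-0 (vertical axis), for each gene of 7 groups of tubulin genes and their partners (horizontal axis), with a bar at the group's median. The beta-tubulin median is -0.51 and the medians of the other groups lie between -0.04 and 0.35, while PFD4 at -2.65 is the lowest point.

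Of the folding machinery, no gene passed the adjusted test in either direction in the lists of 6 prefoldin, 9 CCT and 6 cofactor genes. In pfd4 the PFD4 transcript had a mean of -2.65 ± 0.46 (SD, n = 3), while 4 of the 6 prefoldin genes were above 0 on all 3 arrays, against 12.3% of all loci, PFD6 having the highest mean at 0.51 ± 0.16. The CCT chaperonin genes had a median of 0.11, with 0 of 9 below 0 and 0 of 9 above 0 on all 3 arrays, and lay between CCT3 at -0.10 ± 0.39 and CCT1 at 0.39 ± 0.82. The tubulin folding cofactors had a median of 0.09, from TFCC at -0.25 ± 0.38 to ARL2, a small GTPase of the cofactor pathway, at 0.45 ± 0.57. TFCA, the cofactor that binds free beta-tubulin, had 0.69, 0.69 and -0.15.

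Microtubule-associated proteins, which bind, bundle or sever the polymer, had a median of -0.04 over 13 genes, none of which passed. They ran from EB1C, a plus-end binding protein, at -0.36 ± 0.56 to EB1B at 0.37 ± 0.31, and 1 of the 13 was below 0 on all 3 arrays, against 12.1% of all loci. Across these partner lists, the genes lower at an unadjusted p under 0.05 in limma were PFD4 and TUA1, against 2.58% of all loci. The genes higher at that level were PFD1, PFD6, TUA2 and TUA6, against 2.14% of all loci.

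Markers of organs and of dividing cells were read as ratios only. The deposited ratios carry no level, so the labelled plants could not be checked against defining markers. Of 5 genes of dividing cells 0 were below 0 on all 3 arrays, and their medians were -0.11, -0.19 and 0.15 on arrays 1, 2 and 3. Floral genes had medians of -0.22, -0.27 and -0.09, and 3 of 5 were below 0 on all arrays, against 12.1% of all loci, the lowest being AP1 at -0.64, -0.58 and -0.09. Root markers had medians of -0.04, -0.26 and 0.16, with 0 of 5 below 0 on all arrays. Leaf markers had medians of -0.03, -0.83 and 0.05, with 0 of 5 below 0 on all arrays. The means over 3 arrays were below 0 in 5 of 5 floral and 5 of 5 leaf markers, with medians of -0.20 and -0.21. They were below 0 in 3 of 5 dividing-cell and 3 of 5 root markers, with medians of -0.01 and -0.07. Among all loci 48.7% had a mean below 0. The part of floral, leaf and dividing cells in the beta-tubulin ratios was not tested.

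Some loci outside the family lay close to its mean profile. The 5 loci outside the tubulin genes that lay nearest to the mean profile of the members, by Euclidean distance over 3 arrays, were AT4G29000, OPR1, ACA2, AT2G24240 and ECT5, at distances from 0.07 to 0.13. They are annotated as a tesmin/TSO1-like CXC domain protein, an oxophytodienoate reductase, a calcium ATPase, a potassium channel tetramerisation domain protein and ECT5. The members themselves lay 0.25 (TUB2) to 0.88 (TUB7) from their mean profile. In all, 279 other loci, or 0.962%, were nearer to it than the median member. The members make up that mean profile, which shortens their own distances to it but not those of other loci.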

How the data were processed

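The arrays were dual-dye hybridisations of pfd4 and Col-0 RNA, 3 in all, compared as 1 group of 3 ratios. The authors deposited normalized log2 ratios, 1 per spot and array, made with limma per the submitters' processing notes; its version, background correction and normalization are stated in no source used here, and the log base was taken as 2. The second deposited table matched the first within 0.001 at each of 45220 spots. No signal intensities were used here, so brightness over background is unknown and neither background correction, normalization nor a dim-spot filter could be varied; the number of arrays limits the precision. P-values and intervals set each mean against the spread between these arrays. In limma that spread is drawn in part from all loci, not from the gene's own SD alone.

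Spots with a locus code were averaged per locus (29030 loci, no value missing) and tested with lmFit and eBayes of limma 3.58.1 in R 4.3.3 (mean against 0, two-sided, Benjamini-Hochberg over all loci, threshold 0.05, with 2 residual and 2.68 prior degrees of freedom). The fit was run on simulated data, where the check was that it returned the shifts put in, all larger than the means of the members. That check did not cover the error rate of the test. Summaries used pandas 2.3.3 and numpy 2.4.6. Members, lists and alternatives were chosen with earlier results of these data known. Genes named were all 9 members, all alpha- and gamma-tubulin genes, PFD4, the lowest and highest of each other list of tubulin partners and the 5 nearest loci; marker lists were described by medians and counts; TFCA, AP1 and PFD1 were added with their values known. The alternatives were the first or median spot per locus, centring, a dye term, array weights, leaving out each array, turning the sign of array 3 and the second deposited table.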

Additional observations from a re-analysis of the deposited data

How the results depend on the processing

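All 9 mean ratios stayed below 0 under every alternative run, and 0 loci passed the adjusted test in any of them, members included; the smallest adjusted p of a member in limma was 0.334, without array 3. Leaving out each array in turn gave a median over the 9 genes from -0.67 to -0.465, from 3 to 6 genes with a mean of -0.5 or lower, from 1 to 6 genes lower at an unadjusted p under 0.05 (the lowest of these counts without array 1), and from 7 to 9 genes below 0 on all arrays left. The shares of all loci without arrays 1, 2 and 3 were 5.51%, 1.72% and 7.59% at a mean of -0.5 or lower, 2.11%, 0.93% and 6.04% lower at that p, and 21.9%, 21.0% and 29.2% below 0 on both arrays left. With the sign of array 3 turned, as if its dyes had not been accounted for, the median was -0.27, 2 genes had a mean of -0.5 or lower (4.8% of all loci), 1 was lower at an unadjusted p under 0.05 (6.46%) and 0 were below 0 on all arrays (16.8%); the cause is that all 9 genes were below 0 on array 3 as deposited. PFD4, below 0 on all arrays as deposited, is what the present signs rest on. With the first spot of each locus, 5 genes had a mean of -0.5 or lower (3.76% of all loci). In that setting 6 were lower at an unadjusted p under 0.05 (2.45%) and 6 were below 0 on all arrays (11.7%). The mean of TUB2 was then -0.34. With the median of the spots these counts were 7 (3.61%), 7 (2.58%) and 7 (12.0%). With the dye term, 5 genes had a mean of -0.5 or lower (2.99% of all loci), without TUB1 and TUB8 but with TUB3. In that setting 7 were lower at an unadjusted p under 0.05 in limma (2.64%). The counts at an unadjusted p were added after seeing the data. The ratio within an array already pairs the genotypes, so no further replicate block was fitted.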

Other observations

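Outside the 9 loci, 3 spots carried an annotation that names a beta-tubulin, and none had the same sign on all 3 arrays. An expressed sequence without a locus code, annotated as beta-5 tubulin, had 0.24, 0.26 and -0.36 on arrays 1, 2 and 3. Both spots of TUB5 were below 0 on array 1, at -0.36 and -0.99, where that spot was above 0. Averaged with them, an alternative chosen after seeing the data, it gave TUB5 ratios of -0.37, 0.24 and -0.34. The pseudogene AT2G34760, annotated as similar to beta-7 tubulin, had -0.34, 0.26 and 0.07, while TUB7 had -1.03, -1.32 and -0.07. A further transcript annotated by its likeness to an insect beta-tubulin had 0.08, -0.12 and -0.06. The mean ratios of these 3 spots, from -0.03 to 0.05, lay within the range of 757 dark and negative control spots, from -0.25 to 0.33. Some spots of the family did so too. TUB4 spot 1 at -0.23 and TUB5 spot 1 at -0.13 lay within that range, and TUB4 spot 3 at -0.25 lay on its edge.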
